A study of Mus musculus with 17 samples.

Results

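The genes described here are 6 genes known from the joint interzone: Gdf5, Gdf6, Wnt9a, Wnt4, Erg and Barx1. They were chosen by name for their place in joint formation, and all 6 have a row among the 34682 genes of the deposited tables. The interzone is the band of flattened, condensed cells that forms across a cartilage rod where a synovial joint will arise, and its cells later give articular cartilage, ligaments and the joint lining. Gdf5 and Gdf6 are secreted ligands of the BMP family, Wnt9a and Wnt4 are Wnt ligands that act against cartilage differentiation in the interzone, and Erg and Barx1 are transcription factors, Erg of the ETS family and Barx1 of the homeobox family. In the mouse, loss of Gdf5 shortens limb bones and removes some joints, as in the brachypod mutant.

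Polyadenylated RNA had been sequenced from E12.5 mouse limb buds with structural variants in the region of the cartilage regulator Sox9 and the potassium channel gene Kcnj2. Dup-C (2 libraries) and Dup-L (2) are duplications there, and ΔBor deletes a boundary between the chromatin domains of the 2 genes. The deletion was studied together with the duplication (Dup-LΔBor, 4 libraries), in heterozygous (ΔBor het, 2) and in homozygous form (ΔBor hom, 1), beside wild type (WT, 4). The labels give neither the strain, nor the zygosity of Dup-C, Dup-L and Dup-LΔBor, nor which limb was taken. Nor do they tell if replicates came from different embryos, so the spread behind each p-value may be technical.

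Total counts per library lay between 34486256 and 53711742. The limb label could be checked on Prrx1, a transcription factor of limb mesenchyme, which was at 471 to 916 CPM, counts scaled to the size of each library, in all 15 libraries. Kcnj2 was at 75.2 to 87.7 CPM in Dup-C, 45.7 to 69.4 CPM in Dup-LΔBor, 25.3 to 33.4 CPM for Dup-L, 30.4 to 44.5 CPM in ΔBor het and 63.0 CPM in ΔBor hom, against 17.6 to 26.2 CPM in WT. Library numbers in the column headers fall in 2 ranges, called batches here: the first holds Dup-C, Dup-L, ΔBor het, ΔBor hom, WT 1 and WT 2, and the second holds Dup-LΔBor, WT 3 and WT 4. Pitx1, a transcription factor of the hindlimb, split the libraries without regard to batch. Its level was 0.518 CPM in Dup-L 1, 0.677 CPM in Dup-L 2, 1.83 CPM in both WT 2 and WT 4, and between 39.9 and 116 CPM in the other 11 libraries. Dup-LΔBor and Dup-L therefore differ in Pitx1 as well as in genotype, and the effects of both cannot be told apart between them. Against WT, only WT 2 and WT 4 are as low in Pitx1 as Dup-L.

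The level of the 6 genes per unit of transcript length had the same order in 15 of 15 libraries. In FPKM, which divides fragments by depth and by transcript length, Gdf5 averaged 30.2 over all libraries (13.7 to 40.9), Erg 22.1 (12.6 to 29.4), Wnt4 8.60 (6.02 to 11.2), Gdf6 3.77 (2.37 to 5.03), Wnt9a 2.19 (1.15 to 2.96) and Barx1 0.637 (0.15 to 1.41). The ranges of Gdf5 and Erg overlapped, as did those of Gdf6 and Wnt9a and, at their ends, those of Wnt9a and Barx1. Wnt4 stood apart from its neighbours in the order on both sides.

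**Figure D1:**
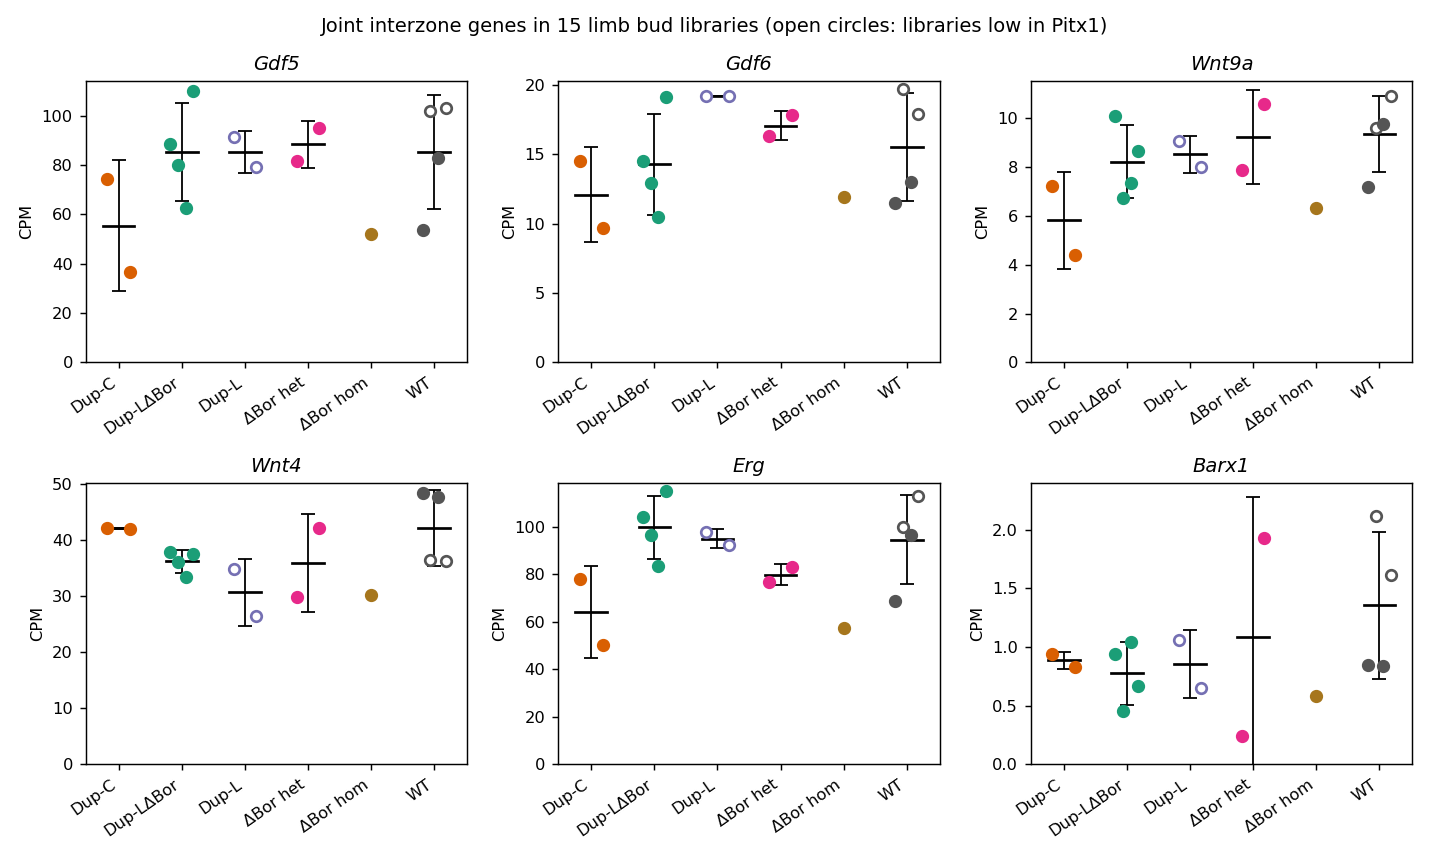
Level of each of the 6 genes in CPM (vertical axis, from 0) in every library, by genotype (horizontal axis), with the group mean (black line) and SD (bar, not drawn for ΔBor hom, cut at 0 for Barx1 in ΔBor het); open circles mark the 4 libraries with Pitx1 at 0.518 to 1.83 CPM. In Wnt4, both Dup-L libraries (34.9 and 26.5 CPM) and the ΔBor hom library (30.2 CPM) lie below all 4 WT libraries (36.3 to 48.5 CPM).

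Among the ligands, Gdf5 was measured at 74.4 and 36.6 CPM for Dup-C, 88.7, 80.0, 62.6 and 110 CPM in Dup-LΔBor, 91.2 and 79.3 CPM for Dup-L, 81.6 and 95.2 CPM in ΔBor het and 52.1 CPM in ΔBor hom, against 53.6, 102, 82.9 and 103 CPM in WT. The lowest library was Dup-C 2, the ΔBor hom library lay just under the lowest WT library, and every other genotype overlapped WT. No comparison of Gdf5 passed the test. In Dup-C it averaged 55.5 ± 26.7 CPM against 85.5 ± 23.2 CPM in WT (SD, n = 2 and 4), which is -0.62 on the log2 scale (SE 0.31, edgeR quasi-likelihood test, adjusted p = 0.331). The log2 fold change was -0.71 in the ΔBor hom library (SE 0.41, adjusted p = 0.283). In Dup-LΔBor, Dup-L and ΔBor het the mean stayed within 0.05 of WT on the log2 scale, with SEs of 0.25, 0.30 and 0.30. In the annotation the exons of Gdf5 overlap Gm15557 on the opposite strand, and how strand was counted is not stated, so reads of the pair could not be told apart.

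Gdf6, the second ligand, is needed for carpal, tarsal and skull joints in the mouse. It had 14.5 and 9.65 CPM in Dup-C, 14.5, 12.9, 10.5 and 19.1 CPM in Dup-LΔBor, 19.2 CPM in both Dup-L libraries, 16.3 and 17.8 CPM in ΔBor het and 11.9 CPM in ΔBor hom, against 11.5, 19.7, 13.0 and 17.9 CPM in WT. All 5 mutant genotypes overlapped WT. Dup-LΔBor lay below Dup-L without overlap, by as little as 19.1 against 19.2 CPM. Its mean of 14.2 ± 3.66 CPM in Dup-LΔBor against 19.2 ± 0.024 CPM in Dup-L (n = 4 and 2) gave a difference of -0.43 in log2 (SE 0.24, adjusted p = 0.156). Without Dup-LΔBor R5, the highest of the 4 libraries, that difference was -0.60 and passed the threshold (adjusted p = 0.0414). Gdf6 had a log2 fold change of 0.31 in Dup-L against WT (SE 0.24, adjusted p = 0.346), and of -0.36 in Dup-C against WT (SE 0.25, adjusted p = 0.455).

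Wnt9a lies on chromosome 11, which also carries the Sox9-Kcnj locus. The 250 bases before its annotated start are given here with those of Wnt4 and of the most upstream of the 3 annotated starts of Erg, to set a pair whose levels were correlated over libraries by Pearson's r, though not by Spearman's rho (Wnt9a and Erg), beside a gene with low r to both (Wnt4). The sequences are RefSeq promoter entries of build GRCm38.p6, printed 5′ to 3′ on the strand of the gene, with CpG dinucleotides in capitals. Of the 6 genes, 4 had an entry: Wnt9a, Wnt4, Barx1 and Erg. The window of Wnt9a (chr11:59306680-59306929, plus strand) holds 48 CpG, as many as or more than which are found in 0.2% of 32851 promoters. That of Wnt4 (chr4:137277385-137277634, plus strand) holds 44 CpG (0.5% of promoters), that of Barx1 40 (1.3%) and that of Erg (chr16:95586594-95586843, minus strand) 14 (29.4%), where the median promoter has 6.
Wnt9a: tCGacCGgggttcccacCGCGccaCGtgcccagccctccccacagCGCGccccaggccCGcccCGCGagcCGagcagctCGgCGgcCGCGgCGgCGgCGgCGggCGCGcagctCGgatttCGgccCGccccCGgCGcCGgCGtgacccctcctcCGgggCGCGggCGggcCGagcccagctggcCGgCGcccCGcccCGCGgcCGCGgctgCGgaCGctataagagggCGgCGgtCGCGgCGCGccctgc
Wnt4: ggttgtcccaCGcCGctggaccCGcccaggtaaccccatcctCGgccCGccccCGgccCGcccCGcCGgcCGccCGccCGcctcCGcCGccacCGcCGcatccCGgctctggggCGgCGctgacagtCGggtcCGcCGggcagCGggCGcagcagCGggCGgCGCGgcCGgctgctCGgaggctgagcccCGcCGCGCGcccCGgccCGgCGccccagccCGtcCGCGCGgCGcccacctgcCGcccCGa
Erg: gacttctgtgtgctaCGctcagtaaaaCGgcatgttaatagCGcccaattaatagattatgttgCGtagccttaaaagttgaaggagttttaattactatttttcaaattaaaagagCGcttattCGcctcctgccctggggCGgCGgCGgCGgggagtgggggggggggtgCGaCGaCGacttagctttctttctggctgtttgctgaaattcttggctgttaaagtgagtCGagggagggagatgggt
Letters of 5 motifs were searched on both strands of the 6 entries of these genes: CTTTGAT for TCF/LEF, TGACTCA for AP-1, ACAAAG for SOX, TAATCC for PITX and CCGGAAG for ETS factors. The TCF/LEF and SOX letters share the run CTTTG on one strand. None of the 5 was in any of the 6 windows. Over all promoters they were found in 3.21% (TCF/LEF), 4.46% (AP-1), 16.5% (SOX), 6.25% (PITX) and 6.91% (ETS).

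Wnt9a, the earliest known Wnt of the interzone, had 7.23 and 4.41 CPM in Dup-C, 10.1, 6.72, 7.37 and 8.67 CPM in Dup-LΔBor, 9.07 and 7.99 CPM for Dup-L, 7.88 and 10.6 CPM in ΔBor het and 6.31 CPM in ΔBor hom, against 7.20, 9.62, 9.77 and 10.9 CPM in WT. The lowest was again Dup-C 2. The ΔBor hom library lay below all WT libraries, and the other genotypes overlapped WT. In Dup-C the mean was 5.82 ± 2.0 CPM against 9.38 ± 1.57 CPM in WT (n = 2 and 4), or -0.68 in log2 (SE 0.23, adjusted p = 0.251). Leaving out WT 1, the lowest WT library, took this to -0.79 and past the threshold (adjusted p = 0.0374). In the ΔBor hom library the log2 fold change was -0.57 (SE 0.30, adjusted p = 0.235).

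Wnt4 was the only one of the 6 genes to pass the test in any comparison, and it fell in Dup-L. It had 42.2 and 42.1 CPM in Dup-C, 37.9, 36.2, 33.4 and 37.6 CPM in Dup-LΔBor, 34.9 and 26.5 CPM for Dup-L, 29.8 and 42.2 CPM in ΔBor het and 30.2 CPM in ΔBor hom, against 48.5, 36.5, 47.8 and 36.3 CPM in WT. Both Dup-L libraries and the ΔBor hom library were lower than every WT library, and the other genotypes overlapped WT. In Dup-L it averaged 30.7 ± 5.93 CPM against 42.3 ± 6.79 CPM in WT (n = 2 and 4), and the log2 fold change was -0.46 (SE 0.16, adjusted p = 0.0391). In bulk tissue, fewer cells that make an RNA and less RNA per cell cannot be told apart. The 2 WT libraries low in Pitx1, as Dup-L is, were also the 2 lower in Wnt4, at 36.5 and 36.3 CPM. With Pitx1 as a covariate the log2 fold change in Dup-L was -0.15 (adjusted p = 0.559), within the first batch it was -0.50 (adjusted p = 0.123), and with Dup-L 1 as the only Dup-L library it was -0.27 (adjusted p = 0.409).

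Wnt4 is also made in surface ectoderm, whose markers are given beside it. The 12 ectoderm markers summed to 540 to 741 CPM in Dup-L against 733 to 1130 CPM in WT. In Dup-L 6 of 12 fell and 0 rose, where 16.6% of all genes fell and 15.8% rose. Their median log2 fold change was -0.45 where all genes had a median of 0. The same markers summed to 769 to 937 CPM in Dup-C, 664 to 818 CPM in Dup-LΔBor, 612 to 700 CPM in ΔBor het and 611 CPM in ΔBor hom. The part of ectoderm in the fall of Wnt4 was not tested. The log2 fold change of Wnt4 was -0.49 in the ΔBor hom library (SE 0.21, adjusted p = 0.157), -0.22 in Dup-LΔBor (SE 0.13, adjusted p = 0.310) and 0.24 in Dup-LΔBor against Dup-L (SE 0.16, adjusted p = 0.238). In Dup-C, where both libraries were at 42 CPM to the nearest whole number, it was -0.0045 (SE 0.16, adjusted p = 0.991).

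Erg, which in the mouse keeps joint-forming and articular chondrocytes from maturing, had 77.9 and 50.3 CPM in Dup-C, 104, 96.4, 83.6 and 115 CPM in Dup-LΔBor, 97.8 and 92.1 CPM for Dup-L, 76.8 and 82.9 CPM in ΔBor het and 57.2 CPM in ΔBor hom, against 68.6, 100, 96.6 and 113 CPM in WT. The lowest values were those of Dup-C 2 and ΔBor hom, and only ΔBor hom did not overlap WT. The log2 fold change was -0.73 in the ΔBor hom library (SE 0.26, adjusted p = 0.0983), and DESeq2 called it (adjusted p = 0.0346). Without WT 1 it was -0.86 and passed in edgeR too (adjusted p = 0.0177), while within the first batch it was -0.61 (adjusted p = 0.309). In Dup-C, Erg averaged 64.1 ± 19.6 CPM against 94.7 ± 18.9 CPM in WT (n = 2 and 4), or -0.56 in log2 (SE 0.19, adjusted p = 0.251). That value was -0.69 without WT 1 (adjusted p = 0.0232).

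Erg is a gene of endothelium as well. The 15 endothelial markers summed to 359 to 425 CPM in Dup-C, 468 to 580 CPM in Dup-LΔBor, 398 to 405 CPM for Dup-L, 420 to 493 CPM in ΔBor het and 378 CPM in ΔBor hom, against 431 to 517 CPM in WT. Of the 14 tested, 12 were lower in Dup-C (median log2 fold change -0.27) and 12 in ΔBor hom (median -0.36), and none passed the test in either. In Dup-L 6 of the 14 fell and 1 rose, where 16.6% of all genes fell and 15.8% rose. The log2 fold change of Erg there was 0.0036 (edgeR, SE 0.19, adjusted p = 0.990). Their part in the values of Erg was not tested.

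Barx1, which marks some joints and the stomach wall, was close to the limit of what these libraries could count. It had 0.936 and 0.833 CPM in Dup-C, 0.939, 0.454, 1.04 and 0.663 CPM in Dup-LΔBor, 1.06 and 0.650 CPM for Dup-L, 0.238 and 1.93 CPM in ΔBor het and 0.578 CPM in ΔBor hom, against 0.850, 2.12, 0.838 and 1.61 CPM in WT. The 2 ΔBor het libraries were the lowest and the second highest of all. Their counts of 9 and 74 have 95% Poisson intervals of 0.109 to 0.452 CPM and 1.52 to 2.43 CPM, which do not meet, and these cover counting error only. The ΔBor hom library, with 21 counts, was the only genotype without overlap with WT, with a log2 difference of -1.22 (SE 0.85, adjusted p = 0.371). In Dup-LΔBor the mean of 0.774 ± 0.266 CPM against 1.35 ± 0.624 CPM in WT (n = 4 each) gave -0.79 (SE 0.48, adjusted p = 0.336). In ΔBor het the log2 fold change was -0.31 (SE 0.58, adjusted p = 0.775), and without ΔBor het 2 it was -2.49 (adjusted p = 0.0399). The last value compares 1 library of 9 counts, whose spread is taken from the other genotypes.

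Set out by genotype, 0 of the 6 genes passed edgeR's test in Dup-C against WT, where 0.00566% of 17655 genes passed. At an unadjusted p under 0.05 there were 2, Wnt9a and Erg, where 16.6% of all genes were. DESeq2 called 0 of the 5 to which it gave an adjusted p, beside 0.0503% of all genes. All 6 log2 fold changes in Dup-C were negative, with a median of -0.58 beside -0.014 over all genes. That of Wnt4 turned positive without WT 1 or WT 3 and that of Gdf6 with Pitx1 as a covariate. Within the first batch the 6 ran between -0.74 for Barx1 and -0.019 for Wnt4, and none passed.

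In Dup-L against WT, 1 of 6 passed (Wnt4, lower), where 32.4% of all genes tested passed and 16.6% of all genes tested were called lower. A count of 1 lower gene in 6 is near that background. The median over the 6 was -0.069, and DESeq2 also called 1, beside 37.3% of all genes. In Dup-LΔBor against WT 0 passed in edgeR, 0 at an unadjusted p under 0.05 and 0 in DESeq2. Over all genes the shares were 3.85% in edgeR, 23.7% unadjusted and 10.3% in DESeq2. The median was -0.16, and within the second batch the 6 ran between -0.62 for Barx1 and -0.077 for Erg. With Pitx1 as a covariate Wnt4 was past the threshold in Dup-LΔBor, at -0.41 (adjusted p = 0.0447).

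In ΔBor het against WT 0 passed in edgeR, 0 at an unadjusted p under 0.05 and 0 in DESeq2, where the shares of all genes were 4.03% in edgeR, 25.9% unadjusted and 14.2% in DESeq2. The median was -0.13, and within the first batch the 6 ran between -0.45 for Barx1 and 0.18 for Gdf5. In ΔBor hom against WT 0 passed in edgeR, 2 at an unadjusted p under 0.05 (Wnt4 and Erg) and 1 in DESeq2 (Erg). All genes had 1.27% in edgeR, 26.6% unadjusted and 15% in DESeq2, so these counts are near their backgrounds. The ΔBor hom library lay below all 4 WT libraries in 5 of the 6 genes, the exception being Gdf6. The share of all genes lying so was not computed, so this count is not a result about the joint genes. The median log2 fold change was -0.64 beside -0.032 over all genes. With its 1 library, ΔBor hom was given the spread of the other genotypes. In Dup-LΔBor against Dup-L 0 passed in edgeR, 0 at an unadjusted p under 0.05 and 0 in DESeq2, while of all genes 43.6% did in edgeR, 51.3% unadjusted and 41.2% in DESeq2. The median was -0.028, and no batch holds both genotypes. With batch as a term the 6 ran between -0.42 for Gdf6 and 0.26 for Wnt4.

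**Figure D2:**
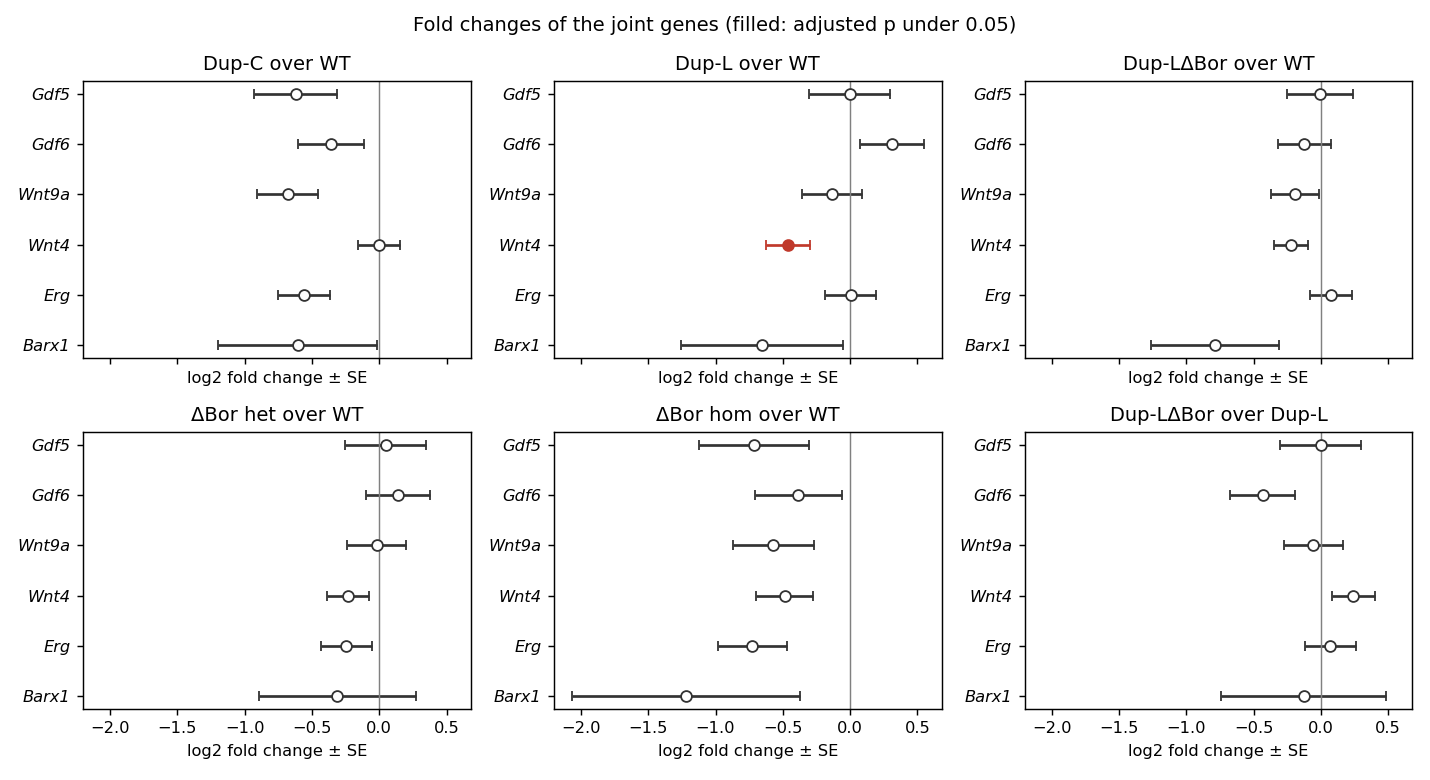
log2 fold change of each gene (horizontal axis) with its SE (bar) in the 6 comparisons, 1 panel each; the filled point passed an adjusted p of 0.05 over all 17655 genes in edgeR's quasi-likelihood test. The single filled point is Wnt4 in Dup-L over WT, at -0.46.

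Markers of other cells of the bud were set beside the low values of Dup-C and ΔBor hom. The 10 markers of red blood cells summed to between 4240 and 4280 CPM for Dup-C and to 6290 CPM for ΔBor hom, against 1790 to 5030 CPM in WT, with Hba-a2 at 0 in every library. All 8 tested were higher in Dup-C (median log2 fold change 0.56) and in ΔBor hom (median 0.78), and none passed the test in either. The 10 tendon markers summed to between 180 and 218 CPM for Dup-C and to 210 CPM for ΔBor hom, against 204 to 338 CPM in WT, and all 10 were lower in Dup-C (median log2 fold change -0.51) and in ΔBor hom (median -0.42). The 15 cartilage markers with a row summed to between 1170 and 1840 CPM for Dup-C and to 1640 CPM for ΔBor hom, against 1300 to 2330 CPM in WT. Of these, 13 were lower in Dup-C (median -0.58, as for the joint genes) and 11 in ΔBor hom (median -0.27). The 10 muscle markers summed to between 428 and 437 CPM for Dup-C and to 308 CPM for ΔBor hom, against 434 to 902 CPM in WT, with 8 lower in Dup-C (median -0.37) and 9 in ΔBor hom (median -0.94). None of the tendon, cartilage or muscle markers passed the test in either genotype. Their part in the low values of the joint genes was not tested.

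Over single libraries, the ratios of Gdf5 to Erg, Gdf6 and Wnt9a varied less than that of Gdf5 to Wnt4. The ratio of Gdf5 to Erg in CPM lay between 0.728 and 1.15 in all 15 libraries, a 1.58-fold range, where Gdf5 itself had a 3.01-fold range. Gdf5 over Gdf6 lay between 3.79 and 6.38, a 1.68-fold range where Gdf6 itself had a 2.04-fold one, and Gdf5 over Wnt9a between 7.45 and 12.7. Gdf5 over Wnt4 lay between 0.869 in Dup-C 2 and 2.99 in Dup-L 2, a 3.44-fold range. Dup-C 2 ranked last of 15 in each of Gdf5, Gdf6, Wnt9a and Erg, and at place 5 in Wnt4.

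Because Pitx1 put the libraries in separate clusters, correlations were computed only over the 11 libraries high in Pitx1, which share 5 genotypes and 2 batches, on log2(CPM + 1). Over the 21 pairs of the 6 genes and Pitx1, p-values come from 100000 permutations, two-sided, and were adjusted by Benjamini-Hochberg. The permutations moved libraries freely over genotypes and batches, so libraries of the same genotype were treated as independent. Of 15 pairs among the joint genes, 4 passed 0.05 by Pearson's r and 3 by Spearman's rho. The share of all gene pairs that would pass was not computed, so these counts have no background. Gdf5 and Erg had r = 0.902 (permutation p = 0.00012, adjusted 0.00252) and rho = 0.818 (permutation p = 0.00354, adjusted 0.0248). Gdf5 and Gdf6 had r = 0.880 (permutation p = 0.00026, adjusted 0.00273) and rho = 0.900 (permutation p = 0.00048, adjusted 0.00735). Gdf5 and Wnt9a had r = 0.854 (permutation p = 0.00104, adjusted 0.00728) and rho = 0.882 (permutation p = 0.0007, adjusted 0.00735). These 3 pairs all hold Gdf5. Wnt9a and Erg had r = 0.764 (permutation p = 0.00568, adjusted 0.0298), with rho = 0.682 not past the threshold (permutation p = 0.0252, adjusted 0.106). Gdf6 did not pass with Wnt9a (r = 0.703, permutation test, adjusted p = 0.0608) or with Erg (r = 0.629, adjusted p = 0.115).

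Without the 2 libraries farthest from the median of the first gene of each pair (Dup-C 2 with ΔBor hom 1 for Gdf5, with ΔBor het 2 for Wnt9a), r was 0.752 for Gdf5 and Erg, 0.861 for Gdf5 and Gdf6, 0.614 for Gdf5 and Wnt9a and 0.711 for Wnt9a and Erg. None of the 21 pairs then passed after adjustment (the lowest adjusted p, exact, was 0.0623, for Gdf5 and Gdf6), so the 4 calls did not hold without those libraries. For Gdf5 and Gdf6 and for Wnt9a and Erg, r itself was within 0.06 of its value over 11 libraries. Within the 6 libraries of the first batch, all 6 pairs of Gdf5, Gdf6, Wnt9a and Erg had r between 0.910 and 0.991, with adjusted p of 0.0194 to 0.0389 in exact permutation tests. By Spearman's rho none of these pairs passed there (exact permutation, adjusted p of 0.0583 to 0.117). The second batch holds 5 such libraries, under the minimum of 6 used for a correlation. In these 5, Gdf6 and Erg followed the order of Gdf5. From highest to lowest, each ran Dup-LΔBor R5, Dup-LΔBor R2, WT 3, Dup-LΔBor R3 and Dup-LΔBor R4. WT 3 and Dup-LΔBor R3 lay close, at 13.0 and 12.9 CPM in Gdf6 and 96.6 and 96.4 CPM in Erg. Wnt9a did not follow that order: Dup-LΔBor R5 was highest in Gdf5 (110 CPM) with 8.67 CPM of Wnt9a. Dup-LΔBor R2 was highest in Wnt9a (10.1 CPM) with 88.7 CPM of Gdf5. Wnt4 had r = -0.042 with Gdf5 (permutation p = 0.902, adjusted 0.905), and r of -0.087, 0.15 and 0.064 with Gdf6, Wnt9a and Erg. Barx1 had r of 0.086 with Gdf5, 0.371 with Wnt9a and 0.518 with Wnt4 (permutation p = 0.0984, adjusted 0.258).

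**Figure D3:**
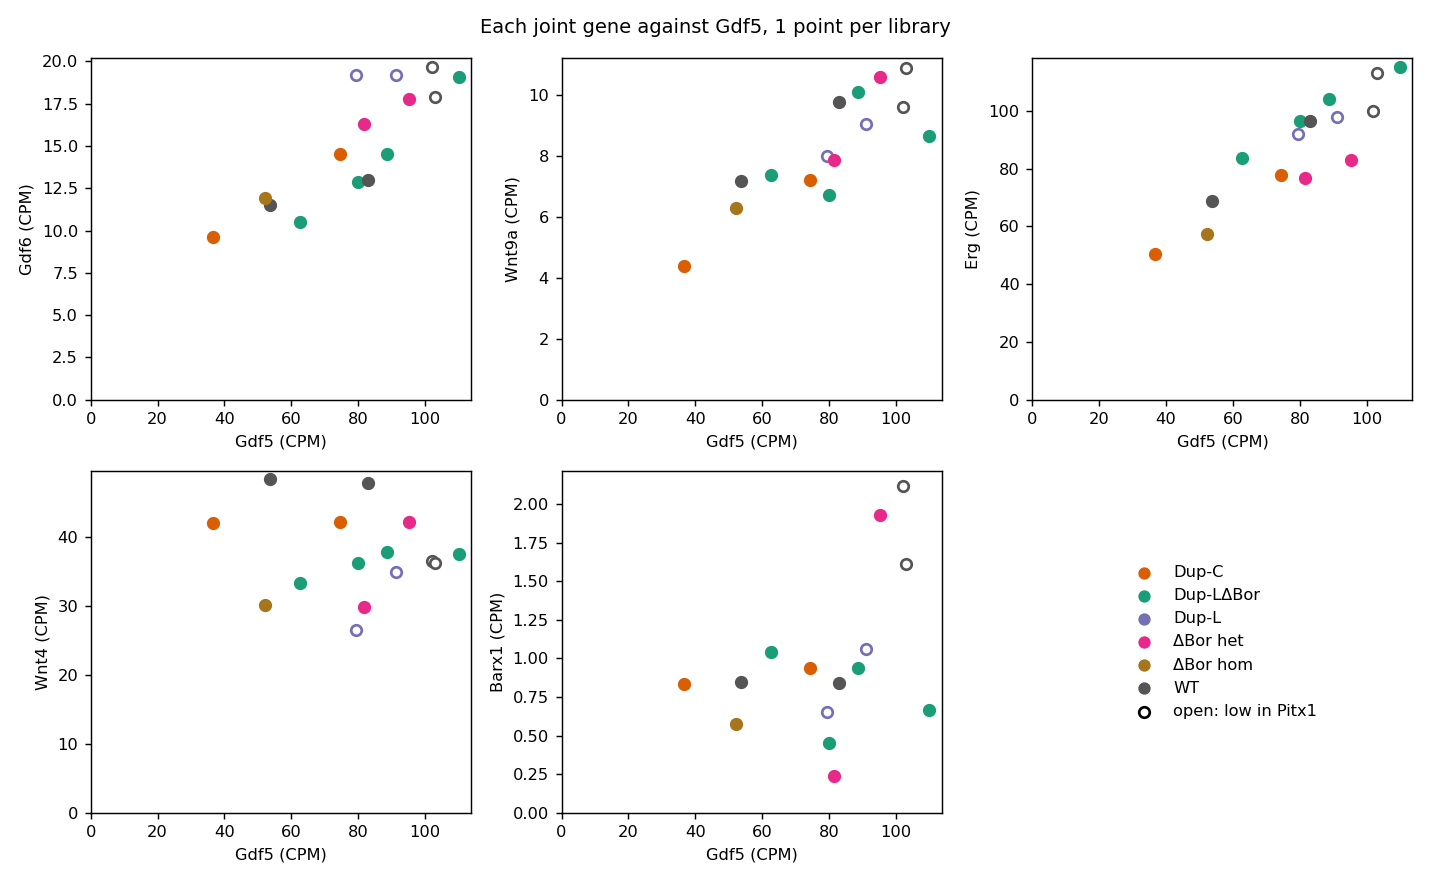
CPM of each of the other joint genes (vertical axes, from 0) against CPM of Gdf5 (horizontal axis, from 0), 1 point per library, coloured by genotype, open where Pitx1 was low. Gdf6, Wnt9a and Erg were higher where Gdf5 was higher (r = 0.880, 0.854 and 0.902 over the 11 libraries high in Pitx1). Wnt4 was not (r = -0.042). Without Dup-C 2 and ΔBor hom 1, r with Gdf5 was 0.861 for Gdf6, 0.614 for Wnt9a and 0.752 for Erg, and none passed after adjustment.

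Limb type was approached through Pitx1 in a fit with a term for each genotype, in which the slope rests mainly on the 4 WT libraries, 2 low and 2 high. Tbx4, a hindlimb transcription factor, rose by 0.32 per log2 unit of Pitx1 (SE 0.029, adjusted p = 6.2e-04), and Tbx5, a forelimb one, had a slope of -0.16 (SE 0.038, adjusted p = 0.0646). Of the 6 joint genes 0 passed, beside 0.578% of 17654 genes, and 2 had an unadjusted p under 0.05, Gdf6 and Wnt4, where 16.2% of all genes did. Wnt4 had a slope of 0.097 (SE 0.030, unadjusted p = 0.00554, adjusted p = 0.130), and Gdf6 one of -0.13 (SE 0.049, unadjusted p = 0.0195, adjusted p = 0.208). In WT, Gdf6 was at 19.7 and 17.9 CPM in the 2 libraries low in Pitx1, beside 11.5 and 13.0 CPM in the 2 high ones, and Wnt4 was at 36.5 and 36.3 CPM beside 48.5 and 47.8 CPM. The slope was -0.11 for Gdf5 (SE 0.069, adjusted p = 0.450), -0.038 for Wnt9a (SE 0.054, adjusted p = 0.768), -0.070 for Erg (SE 0.043, adjusted p = 0.453) and -0.17 for Barx1 (SE 0.14, adjusted p = 0.580). That of Wnt9a was 0.0091 without WT 1. With batch as a further term, again 0 of 6 passed, beside 2.91% of genes, and that of Wnt4 had an adjusted p of 0.0842. Barx1 and Pitx1 had r = 0.679 over the 11 libraries high in Pitx1 (permutation p = 0.0249, adjusted 0.0870), and r = -0.018 without the 2 ΔBor het libraries.

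**Figure D4:**
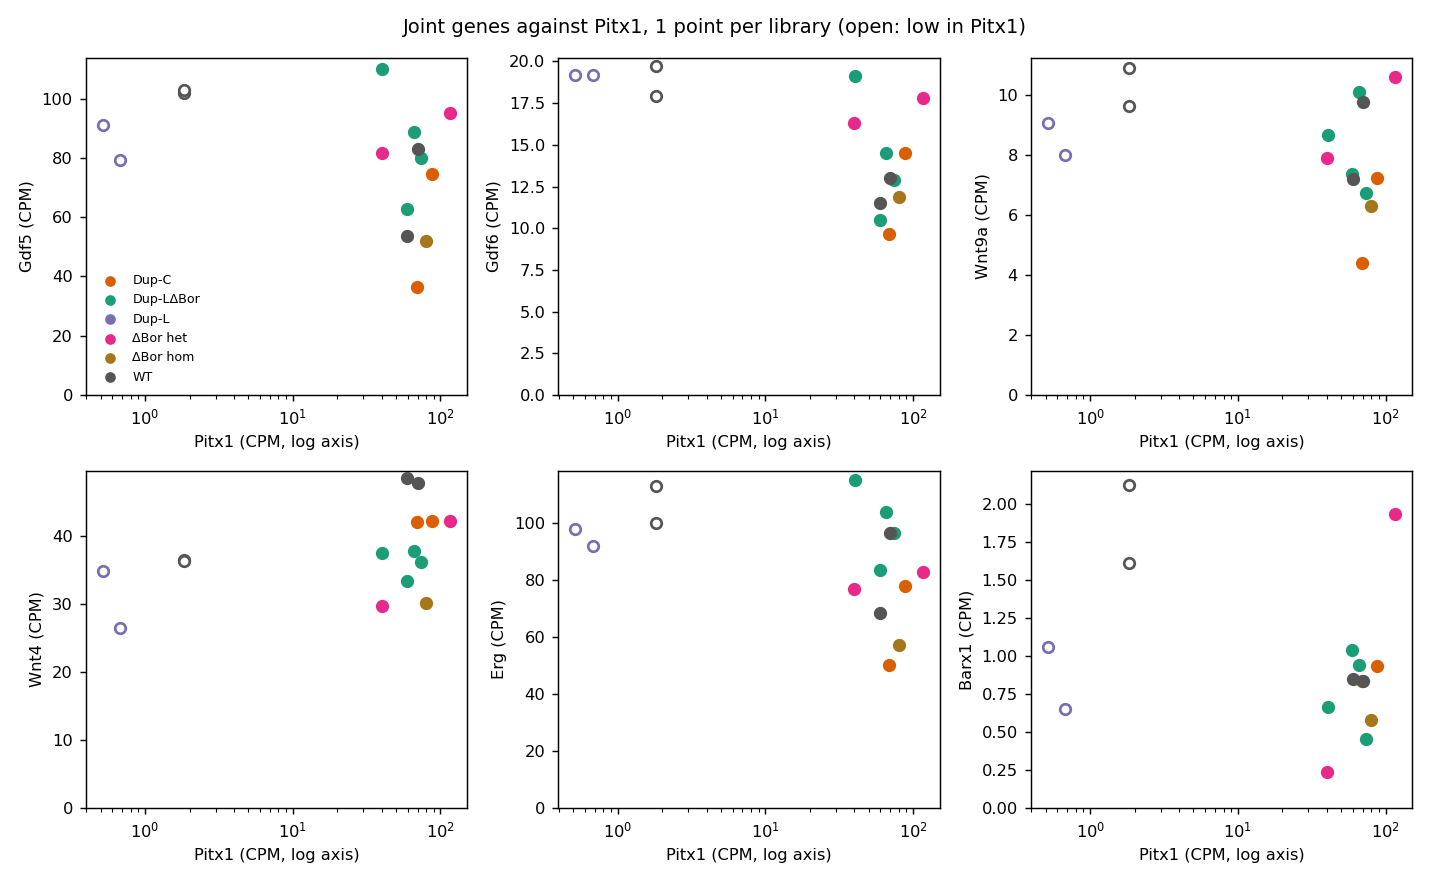
CPM of each joint gene (vertical axes, from 0) against CPM of Pitx1 (horizontal log axis), 1 point per library, coloured by genotype, open where Pitx1 was low. The 4 libraries at 0.518 to 1.83 CPM of Pitx1 lie apart from the 11 at 39.9 to 116 CPM, and the Wnt4 values of these 4 (26.5 to 36.5 CPM) fall within the lower part of its range.

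Among all genes tested with a mean of at least 1 CPM, the genes most like each joint gene were found by Pearson's correlation of log2(CPM + 1) over all 15 libraries, given as a description since the libraries share genotype, batch and Pitx1 level. For Gdf5 these were Gdf10, another ligand of its family (r = 0.950), Dusp8, a phosphatase of MAP kinases (0.949), and Mia, a secreted protein of cartilage (0.949). For Gdf6 they were Prss35 (0.961), Abi3bp (0.945) and Slc2a13 (0.945), and for Wnt9a Anxa6 (0.949), Zcchc24 (0.948) and Adamts8 (0.939). For Erg they were P4ha3, a subunit of a collagen-modifying enzyme (0.983), Copz2 (0.975) and Mcam, an adhesion molecule of vessels (0.967). For Wnt4 they were Trp53i11 (0.934), Wnt7b, a Wnt of surface ectoderm (0.910), and Ece1, which makes active endothelin (0.910). For Barx1 they were Pkdcc, a secreted kinase needed for long bones in the mouse (0.893), Tmem59l (0.865) and Fxyd7 (0.858). Of 13928 genes ranked by likeness to Gdf5, Erg came at place 20, Wnt9a at 59 and Gdf6 at 107, while Barx1 came at 3246 and Wnt4 at 7770.

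A wider list of 32 joint genes held 31 that could be tested. In Dup-C, ΔBor het and ΔBor hom 0 rose and 0 fell, with a median log2 fold change of -0.35 in Dup-C (26 of 31 lower), 0.087 in ΔBor het and -0.26 in ΔBor hom (22 of 31 lower), beside medians of -0.014, -0.022 and -0.032 over all genes. In Dup-L 3 rose and 5 fell, where 15.8% of all genes rose and 16.6% fell. With GC and length offsets 12 of 1844 called genes were higher, but those fits were not scaled to depth. That count therefore does not show how GC content or length bears on the split. Of the 3 that rose, Dcx, a microtubule-binding protein, did so by 0.69 (edgeR, SE 0.13, adjusted p = 0.00222). It was at 82.0 ± 4.8 CPM in Dup-L against 51.0 ± 7.0 CPM in WT (n = 2 and 4). Gdf7, the third ligand of the Gdf5 group, and Scx, a transcription factor of tendon, were among those that fell; they are named after their values were seen. Gdf7 had only 2 and 1 counts in the Dup-L libraries against 12, 16, 22 and 9 in WT, and the ratio of pooled counts scaled to depth was 0.135, with an exact counting interval of 0.0272 to 0.416 that covers counting error only. ΔBor het 1, with 1 count, and ΔBor hom, with 2, were as low. Scx was at 18.9 ± 2.6 CPM in Dup-L against 35.4 ± 9.6 CPM in WT and fell by 0.91 (edgeR, SE 0.28, adjusted p = 0.0264). The 10 tendon markers, Scx among them, did not fall as a group in Dup-L. Of these 10, 2 rose and 1 fell, with a median log2 fold change of 0.16. They summed to 342 to 375 CPM in Dup-L against 204 to 338 CPM in WT. In Dup-LΔBor 1 of 31 passed, near the 3.85% of all genes called. This was Sulf1, an enzyme that trims heparan sulphate and alters Wnt and BMP signalling. Sulf1 rose by 0.45 (edgeR, SE 0.10, adjusted p = 0.0327), at 551 ± 31 CPM in Dup-LΔBor against 404 ± 58 CPM in WT (n = 4 each). In Dup-LΔBor against Dup-L 7 rose and 7 fell, where 21.5% of all genes rose and 22.1% fell. Dcx fell by 0.98 (edgeR, SE 0.13, adjusted p = 1.1e-04). Trps1, a transcription factor that Gdf5 acts through in cartilage, fell by 0.83 (SE 0.14, adjusted p = 3.1e-04).

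Receptors, antagonists and targets of the BMP and GDF ligands filled a list of 26, all tested. In Dup-C and ΔBor hom 0 passed. In ΔBor het 2 rose, beside 4.03% of all genes called: the receptor gene Acvr2a by 0.41 (SE 0.10, adjusted p = 0.0435) and the ligand gene Bmp2 by 0.47 (SE 0.12, adjusted p = 0.0443). In Dup-LΔBor 1 rose and 1 fell, beside 3.85% of all genes called. The receptor gene Acvr2b rose by 0.53 (edgeR, SE 0.14, adjusted p = 0.0454) and the receptor gene Acvr1 fell by 0.28 (SE 0.067, adjusted p = 0.0348). In Dup-L 7 rose and 7 fell, beside 15.8% and 16.6% of all genes. Acvr2a rose by 0.53 (SE 0.10, adjusted p = 0.00241), and Acvr2b fell by 1.17 (SE 0.18, adjusted p = 0.00143), at 9.70 ± 0.96 CPM in Dup-L against 21.8 ± 4.4 CPM in WT. Bmpr1b, the receptor through which Gdf5 is best known to signal, was among those that rose in Dup-L, named after its values were seen, at 63.6 ± 0.078 CPM in Dup-L against 42.5 ± 7.7 CPM in WT (log2 fold change 0.58, SE 0.15, adjusted p = 0.00929). In Dup-LΔBor against Dup-L 6 rose and 9 fell, beside 21.5% and 22.1% of all genes, with Acvr2b up by 1.71 (SE 0.18, adjusted p = 5.1e-05), and Id2, a target of BMP signalling, and Fst, an antagonist, down with log2 fold changes of -0.89 (SE 0.14, adjusted p = 2.4e-04) and -0.93 (SE 0.16, adjusted p = 4.3e-04).

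The Wnt list of 32 ligands, receptors, antagonists and targets was tested whole. In Dup-C, ΔBor het and ΔBor hom 0 passed. In Dup-L 0 rose and 9 fell, beside 15.8% and 16.6% of all genes, with a median of -0.18. Among these, the co-receptor gene Lrp5 fell by 1.21 (SE 0.17, adjusted p = 0.00138), at 62.4 ± 1.2 CPM in Dup-L against 144 ± 33 CPM in WT (n = 2 and 4). Tcf7l1, a transcription factor of the pathway, fell by 0.97 (SE 0.17, adjusted p = 0.00187), and the receptor gene Ror2, which is also in the BMP list, by 0.82 (SE 0.16, adjusted p = 0.00221). In Dup-LΔBor 0 rose and 1 fell, beside 3.85% of all genes called. The antagonist gene Dkk1 fell by 0.98 (edgeR, SE 0.22, adjusted p = 0.0300), at 4.31 ± 0.65 CPM in Dup-LΔBor against 8.44 ± 3.1 CPM in WT (n = 4 each). In Dup-LΔBor against Dup-L 7 rose and 2 fell, beside the same 21.5% and 22.1%, and Lrp5 rose by 1.41 (SE 0.17, adjusted p = 8.2e-05). GC content and transcript length accounted for 41.3% of the variance of log2 fold changes over genes in Dup-L against WT and for 31.7% in Dup-LΔBor against Dup-L, beside 2.19% in Dup-LΔBor against WT.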

How the data were processed

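RNA-seq counts per gene and FPKM values, both made by the authors, were used for 15 limb bud libraries of 6 genotypes; 2 fingertip samples of E17.5 were not analysed here. Reads had been aligned with STAR to mm9, per the submitters' processing notes, which also name DESeq2 and bedtools 2.17.0. The counting tool, annotation and strand setting, and the library scale of the FPKM values deposited by the authors, are not stated in the sources used here. Counts are raw and deposited per gene. The columns of Dup-LΔBor hold a different genotype name and run R2 to R5, so they were matched to the genotype only and keep those names. R4 and R5 share a library number, but their counts differed as those of other pairs did (mean chi-square per gene 27.3, beside 6.28 to 35.5). For ΔBor hom the column says R3 and the label replicate 1.

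Counts were fitted with edgeR 4.0.16 in R 4.3.3 (TMM, filterByExpr, robust quasi-likelihood F-test, two-sided) over all 15 libraries and 6 groups, with Benjamini-Hochberg adjustment over 17655 genes and a threshold of 0.05. Each genotype was compared with WT, and Dup-LΔBor with Dup-L. All 6 genes passed the filter on low counts. An SE is the fold change divided by the root of its F-statistic. Levels are TMM-scaled CPM (mean ± SD). "Rose" and "fell" are used only past the threshold. The slope on Pitx1 has genotype as a term. Correlations used SciPy 1.17.1. Alternatives were DESeq2 1.42.0, no filter on low counts, batch as a term or within a batch, Pitx1 as a covariate, GC and length offsets (15255 genes), limma 3.58.1 on log2(FPKM + 1) or (FPKM + 0.1) with mean FPKM of at least 0.5 or no filter, a replicate block, and leaving out each library. The main edgeR fit was tested on simulated data for Dup-L and Dup-LΔBor against WT. The alternatives, the slope and the correlations were not. The simulation gave every gene the same spread beyond counting error and held no batch or Pitx1 difference. Its planted changes were of at least 1 log2 unit, so it does not cover smaller ones. GC content, length and chromosome came by symbol from a GRCm38 annotation, another build, and promoters from RefSeq, so no coordinates of the counted genes are given. The GC and length offsets took the place of library size, so the fits with them were not scaled to depth. Their fold changes and counts therefore mix depth with GC content and length. The genes and lists were chosen with earlier results of these data known. Of the 3 wider lists, up to 6 genes past the threshold per comparison were named, by smallest adjusted p, with exceptions said in the text; the 3 most like genes were named for each member.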

Additional observations from a re-analysis of the deposited data

How the results depend on the processing

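Of 588 fold changes recomputed under an alternative, 500 kept their direction and their side of the threshold, 72 changed sign, 9 were no longer past the threshold and 7 newly passed it. These counts include the fits with GC and length offsets, which were not scaled to depth. Those that changed sign were at most 0.434 in size in the main analysis and had adjusted p of 0.239 or more under the alternative; in every case the cause was not tested. The values given here by gene are log2 fold changes.

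Of the 6 joint genes, the number past the threshold in Dup-L against WT was 1, and it was 0 with batch as a term, within the batch, with Pitx1 as a covariate, with GC and length offsets, with limma on log2(FPKM + 1) and no filter, and with the replicate block. The log2 fold change of Wnt4, -0.46, was there -0.47, -0.50, -0.15, -0.55, -0.44 and -0.51 in that order, farthest from the main value with Pitx1. With the offsets and batch as a term together it was -0.68 and past the threshold (edgeR, adjusted p = 0.0463). Neither fit with offsets was scaled to depth. The number ran between 0 and 1 without single libraries (0 without Dup-L 2, WT 1 or WT 3, at -0.27, -0.40 and -0.41). In the other comparisons it was 0 in the main analysis, but 1 in Dup-LΔBor against WT with Pitx1 as a covariate (Wnt4) and 1 in ΔBor hom against WT with DESeq2 (Erg). Without single libraries it ran between 0 and 2 in Dup-C (2 without WT 1, Wnt9a and Erg), between 0 and 1 in ΔBor het (1 without ΔBor het 2), in ΔBor hom (1 without WT 1) and in Dup-LΔBor against Dup-L (1 without Dup-LΔBor R5).

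With Pitx1 as a covariate, signs changed in Dup-C for Gdf6 (0.0059), in Dup-LΔBor for Gdf5 (0.26) and Gdf6 (0.18), in Dup-L for Gdf6 (-0.060) and Erg (-0.20), in ΔBor het for Wnt9a (0.080) and Barx1 (0.24), and in Dup-LΔBor against Dup-L for Gdf5 (0.59), Gdf6 (0.24), Wnt9a (0.15), Wnt4 (-0.27) and Barx1 (0.76). With batch as a term they changed in Dup-LΔBor for Erg (-0.074), in Dup-L for Gdf5 (0.13) and Wnt9a (0.020), in ΔBor het for Wnt9a (0.14), and in Dup-LΔBor against Dup-L for Erg (-0.24) and Barx1 (0.18). Within the batch they changed in Dup-LΔBor for Erg (-0.077), in Dup-L for Gdf5 (0.11) and in ΔBor het for Wnt9a (0.13). With GC and length offsets, not scaled to depth, they changed for Erg in Dup-LΔBor (-0.11) and in Dup-L (-0.34), and in ΔBor het for Gdf5 (-0.089) and Gdf6 (-0.11). With those offsets and batch as a term they changed in Dup-LΔBor for Erg (-0.094), in Dup-L for Gdf6 (-0.13) and Erg (-0.36), in ΔBor het for Gdf5 (-0.13) and Gdf6 (-0.29), and in Dup-LΔBor against Dup-L for Gdf6 (0.0038) and Barx1 (0.20).

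With DESeq2 signs changed for Erg in Dup-L (-0.014) and for Gdf5 in Dup-LΔBor against Dup-L (0.0084), and without the filter on low counts for the same 2 results (-0.063 and 0.054). With limma on FPKM they changed in Dup-L for Gdf5 (0.0053 with a pseudocount of 1, also without a filter, and 0.0069 with 0.1) and for Erg (-0.0071, again without a filter, and -0.0063).

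Replicate numbers 1 and 2 are shared by Dup-C, Dup-L, ΔBor het and WT, but deviations of same-numbered libraries correlated at only -0.31 to 0.14, so the numbers were not taken as pairs. With the replicate block Wnt4 in Dup-L was at -0.51 (edgeR, adjusted p = 0.143), Gdf5 in Dup-L at 0.085 and Wnt9a in ΔBor het at 0.12, the last 2 with a changed sign; it changed no other call.

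Without single libraries, Wnt4 in Dup-C ran between -0.053 and 0.068. In Dup-LΔBor against WT, Gdf5 ran between -0.18 and 0.12, Gdf6 between -0.30 and 0.015, and Erg between -0.057 and 0.17. In Dup-L, Gdf5 ran between -0.18 and 0.11 and Erg between -0.14 and 0.11. In ΔBor het, Gdf5 ran between -0.13 and 0.16, Wnt9a between -0.25 and 0.17, and Barx1 between -2.49 and 0.51. In Dup-LΔBor against Dup-L, Gdf5 ran between -0.14 and 0.12, Wnt9a between -0.16 and 0.039, and Barx1 between -0.45 and 0.27. The slope of Wnt9a on Pitx1, a test added after seeing the data with its alternatives, ran between -0.079 and 0.0091.

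The number of correlated pairs among the joint genes was 4, and 0 without the 2 libraries farthest from the median. Pearson's r changed sign there for Gdf6 and Barx1 (-0.47), Wnt9a and Pitx1 (-0.30), Erg and Barx1 (-0.083) and Barx1 and Pitx1 (-0.018). On log2(FPKM + 1) it did so for Gdf5 and Wnt4 (0.020). Within the first batch, a choice made after seeing the data, it did so for Pitx1 with Gdf5 (0.18), Gdf6 (0.15) and Erg (0.12).

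Depth limits Barx1, whose counts of 9 to 118 leave wide intervals; the other 5 genes had at least 164 counts in every library. Dup-C, Dup-L and ΔBor het have 2 libraries each and ΔBor hom 1, and the SEs of the log2 fold changes of the other 5 genes were 0.13 to 0.41.

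Counts of all genes called moved more than those of the joint genes. In Dup-L against WT 5719 genes were called, and 3036 within the batch, 1404 with Pitx1 as a covariate, 1844 and 3276 with GC and length offsets without and with batch as a term, 1584 with the replicate block, and 1122 without Dup-L 2. In Dup-LΔBor against Dup-L the 7704 became 2298 with batch as a term, 2233 with Pitx1, 1541 and 586 with the offsets, and 4438 without Dup-L 2. In Dup-LΔBor against WT the 679 became 1656 with DESeq2, 70 with batch as a term, 66 within the batch, 1410 with Pitx1, 167 with the offsets and batch, 210 with limma and no filter, and 81 to 1516 without single libraries. In ΔBor het the 712 became 2091 with DESeq2, 32 with batch as a term, 55 within the batch, 1249 with Pitx1, 325 and 370 with the offsets, 102 with limma and no filter, 35 with the replicate block, and 19 to 2490 without single libraries. In ΔBor hom the 225 became 2135 with DESeq2, 114 with no filter, 26 with batch as a term and within the batch, 348 and 356 with the offsets, 29 and 38 with limma at pseudocounts of 1 and 0.1, and 21 to 2750 without single libraries. In Dup-C 1 gene was called, and 6 with DESeq2, 0 within the batch and with the replicate block, 71 and 33 with the offsets, 3 with limma and no filter, and 1640 without WT 1. With the offsets, which left depth unscaled, 15 of 325 called genes were higher in ΔBor het, 12 of 348 in ΔBor hom and 3 of 71 in Dup-C.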
